A study of Mus musculus with 3 samples.

Results

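The 10 genes described here encode signalling proteins that are secreted or held at the cell surface: the CC chemokines Ccl2 and Ccl7, the CXC chemokines Cxcl1, Cxcl10 and Cxcl12, the growth factor Csf1, the interleukins Il6 and Il18, and the lymphotoxins Lta and Ltb. They were taken by name, with earlier results of these data known, from the 20274 genes that could be named on a mouse expression array. They were read by 13 of its 55681 probes. RNA came from mouse embryonic stem cells on 3 arrays, 1 for each group, so no difference below has a replicate check and no p-value is given. The number of arrays limits the precision of every value.

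The array labelled Pcgf6KO+ Pcgf6_flag, called the Flag-labelled array below, carried RNA of Pcgf6-edited cells that had also been infected with a lentivirus for Flag-tagged Pcgf6. The Pcgf6KO array carried RNA of cells edited at Pcgf6 with Cas9, and the wildtype array that of unedited cells. All cells were labelled male and were grown in serum with leukaemia inhibitory factor on a layer of mitomycin-inactivated embryonic fibroblasts, so RNA of this feeder layer may be present in each sample. The strain, the number of clones and the promoter of the lentivirus were not stated in the labels. A source field also named muscle, whereas the cell type field gave embryonic stem cells. All 16 stem cell markers, among them Pou5f1 and Nanog, were well above background on all 3 arrays, and none of them differed 2-fold in any comparison.

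Chemokines are small secreted proteins that steer the movement of leukocytes and other cells through receptors coupled to G proteins. Csf1, Il6, Il18 and the lymphotoxins act over short distances on the survival, growth and activation of cells that carry their receptors. Many of these genes are textbook targets of the transcription factor NF-kappaB or of interferon signalling, and fibroblasts are a known source of Ccl2, Ccl7, Csf1, Il6 and Cxcl12. Pcgf6, the edited gene, encodes a RING finger subunit of a variant Polycomb repressive complex that acts on germline genes in stem cells.

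The promoters of 5 members are printed here because they belong to genes that were highest in Pcgf6KO (Cxcl10, Cxcl1 and Ltb) and to genes that were highest in wildtype (Csf1 and Il6), and because each of them holds the same short match. Each run covers 250 bases before to 50 bases after the start site on the gene's own strand, from RefSeq on GRCm38.p6. Capitals mark matches, on either strand, to an NF-kappaB motif (GGGA, any 3 bases, then TCC) and, in Cxcl10, also to an interferon response motif (GAAA, any 2 bases, then GAAA). Their positions are chr5:92348840-92349139 on the minus strand for Cxcl10, chr5:90890995-90891294 on the plus strand for Cxcl1, chr17:35194257-35194556 on the plus strand for Ltb, chr3:107760420-107760719 on the minus strand for Csf1 and chr5:30012864-30013163 on the plus strand for Il6.
Cxcl10: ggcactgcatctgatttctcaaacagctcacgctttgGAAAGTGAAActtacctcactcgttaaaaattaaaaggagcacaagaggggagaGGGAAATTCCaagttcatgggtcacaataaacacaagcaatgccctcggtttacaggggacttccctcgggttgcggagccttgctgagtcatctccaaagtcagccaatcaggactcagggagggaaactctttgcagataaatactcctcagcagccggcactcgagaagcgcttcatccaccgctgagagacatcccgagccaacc
Cxcl1: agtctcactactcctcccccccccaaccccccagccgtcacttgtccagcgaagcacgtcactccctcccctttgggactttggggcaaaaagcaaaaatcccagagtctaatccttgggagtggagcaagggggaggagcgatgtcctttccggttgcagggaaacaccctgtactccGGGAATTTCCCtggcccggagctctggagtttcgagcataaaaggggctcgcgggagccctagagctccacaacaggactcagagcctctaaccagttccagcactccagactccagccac
Ltb: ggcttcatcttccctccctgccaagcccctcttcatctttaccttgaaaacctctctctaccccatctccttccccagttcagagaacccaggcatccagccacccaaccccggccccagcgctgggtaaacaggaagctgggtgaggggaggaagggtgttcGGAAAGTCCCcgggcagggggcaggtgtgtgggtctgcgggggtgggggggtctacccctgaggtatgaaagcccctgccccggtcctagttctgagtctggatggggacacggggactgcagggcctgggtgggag
Csf1: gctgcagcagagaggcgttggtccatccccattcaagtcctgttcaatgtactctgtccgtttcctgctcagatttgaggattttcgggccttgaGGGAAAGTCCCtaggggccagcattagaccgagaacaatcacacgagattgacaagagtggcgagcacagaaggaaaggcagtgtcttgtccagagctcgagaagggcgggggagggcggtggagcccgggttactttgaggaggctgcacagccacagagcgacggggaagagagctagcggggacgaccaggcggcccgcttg
Il6: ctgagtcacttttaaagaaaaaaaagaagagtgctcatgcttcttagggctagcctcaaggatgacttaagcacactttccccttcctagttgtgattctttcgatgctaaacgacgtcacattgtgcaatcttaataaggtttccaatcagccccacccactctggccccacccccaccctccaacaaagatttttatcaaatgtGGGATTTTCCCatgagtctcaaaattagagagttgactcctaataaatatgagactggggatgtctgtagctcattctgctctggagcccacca

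Of the 10 members, 8 had a promoter in the RefSeq table, and 5 of these 8 held the NF-kappaB motif, against 4.59% of all 32851 promoters of this length. The match began 155 bases before the start site in Csf1, 71 in Cxcl1, 159 in Cxcl10, 44 in Il6 and 87 in Ltb. In Csf1, Cxcl1 and Il6 the match read on both strands, shifted by 1 base, so the capitals there cover 11 letters. Cxcl10 was the 1 member with the interferon response motif, 213 bases before its start, against 3.44% of all promoters. A TATA match (TATAAA) lay in Il18 and Lta, against 13.6% of all promoters. The match began 175 bases before the start site in Il18, on the opposite strand, and 167 bases before it in Lta. Neither the E-box CACGTG nor the E2F motif TTCCCGC was found in any of the 8, against 7.15% and 4.60% of all promoters. The NF-kappaB match was thus present both in members that were higher and in members that were lower in Pcgf6KO. A match describes letters in this window and does not show binding.

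Levels below are log2 of the background-subtracted spot intensity minus the 75th percentile of the same array. A gene was called where 2 arrays differed at least 2-fold. A gene that 1 of the 2 arrays could not lift well above background has only a bound. The bound sets the measured array against the dimmer array's detection limit, and it is then written as at least N-fold. If the gene's own signal there is brighter than the limit, that signal is used. The bound then equals the measured difference and is no firm lower limit. The detection limit is the lowest signal that the scanner software called well above background. Levels of different genes come from different probes and are not compared with each other. This limit was 103 units on the Flag-labelled array, 53.4 on the Pcgf6KO array and 52.7 on the wildtype array, and the software called 60.7%, 66.0% and 65.3% of probes on the same arrays well above background, spot by spot. Repeated spots of 1 probe within an array gave a typical SD of 0.09 for a difference between single spots, which covers spot noise only. It was taken from probes whose repeated spots were all well above background, and members could be noisier. On the Flag-labelled array the SD between spots was 0.14 for Ccl2 and 0.36 for Lta.

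Pcgf6 itself, read by 1 probe (NM_027654), had a level of 0.42 on the Flag-labelled array, 0.84 on the Pcgf6KO array and 1.87 on the wildtype array. It was 2.04-fold lower in Pcgf6KO than in wildtype and no higher on the Flag-labelled array than in Pcgf6KO (-0.42). The sources used here do not say which part of the transcript the probe reads, or whether the edit or the lentiviral copy changes it. Directions drawn from the Flag-labelled array therefore rest on its label. That array also lay alone on slide 2, so slide and group cannot be told apart in the comparisons that use it.

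In Pcgf6KO against wildtype, 9 of the 10 members differed at least 2-fold, and they split into opposite directions. The members were chosen with earlier results of these data known. Their counts and medians, here and in the other comparisons, may therefore follow in part from that choice. Cxcl1, Cxcl10, Il18, Lta and Ltb were higher, and Ccl2, Ccl7, Csf1 and Il6 were lower, Il6 as a bound. Over all 15879 genes tested, 6.61% were higher and 3.56% were lower. The median of the 9 members measured on both arrays was 1.62, with a range of -5.40 to 2.33, beside a median of -0.02 over all 14997 genes measured on both. Cxcl12 was the 1 member that was not called.

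**Figure D1:**
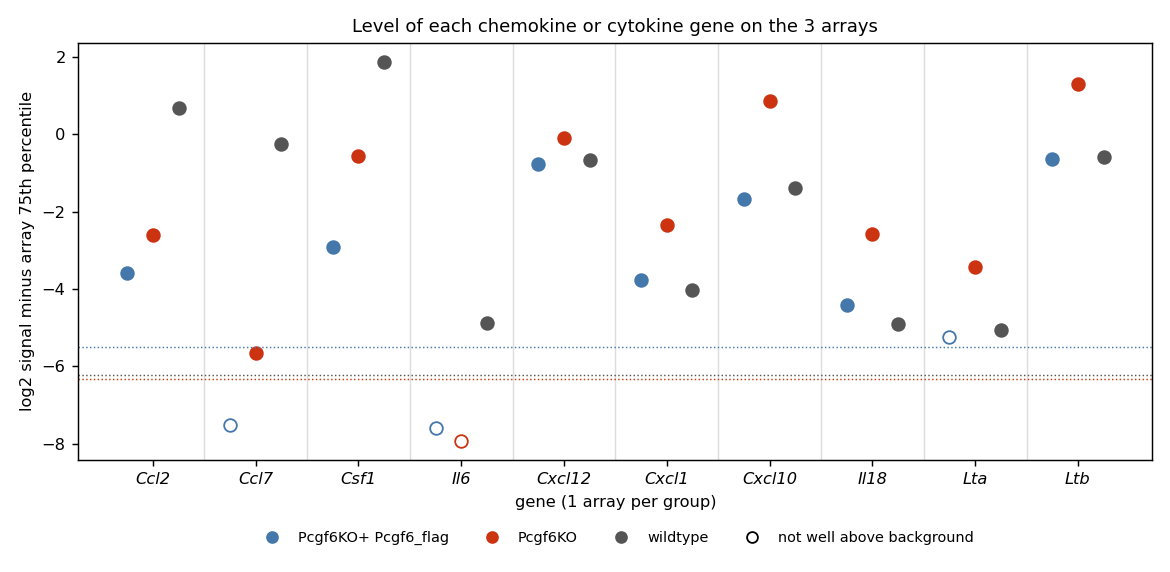
Level of each member (vertical axis, log2 signal minus the 75th percentile of its array) on the Flag-labelled array (Pcgf6KO+ Pcgf6_flag, blue), the Pcgf6KO array (red) and the wildtype array (grey), 1 point per array. Open points were not well above background, and dotted lines mark the lowest level well above background on each array. The wildtype point is the highest for Ccl2, Ccl7, Csf1 and Il6, and the Pcgf6KO point is the highest for the other 6 genes.

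Among members measured on both arrays, the CC chemokines were the furthest below wildtype in Pcgf6KO. Ccl2 encodes a chemokine that recruits monocytes through the receptor Ccr2, and it was read by 1 probe (NM_011333) spotted 10 times. Its mean signal was 383 units on the Flag-labelled array, 703 on the Pcgf6KO array and 6254 on the wildtype array. The 10 spots spanned 345 to 486, 629 to 812 and 5732 to 7295 units on these arrays, so the arrays did not overlap at the level of spots. These spots repeat 1 array per group and are not replicates, and the share of all repeatedly spotted probes without overlap is not given. After scaling, the levels were -3.59, -2.61 and 0.67. Ranks here and below count only genes measured on both arrays and leave out genes with only a bound. Ccl2 was 9.75-fold lower in Pcgf6KO than in wildtype, the 25th lowest of 14997 such genes. It was 19.2-fold lower than wildtype on the Flag-labelled array, the 10th lowest of 14193 such genes.

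Ccl7 encodes another monocyte-attracting chemokine, and in the RefSeq gene order it is the next protein-coding gene after Ccl2 on chromosome 11. Its single spot (NM_013654) gave 25.5 units on the Flag-labelled array, not well above background, 85.1 units on the Pcgf6KO array and 3286 units on the wildtype array. The scanner software's own error for these spots was 25.6, 15.2 and 329 units. Ccl7 was 42.3-fold lower in Pcgf6KO than in wildtype (-5.40), the 5th lowest of 14997 genes. Its Pcgf6KO spot lay near the detection limit of 53.4 units. With another background correction (normexp) this difference was -4.17. On the Flag-labelled array Ccl7 was at least 37.6-fold lower than in wildtype. Between the Flag-labelled array and Pcgf6KO no fold can be given, because the Pcgf6KO level of -5.66 lay below the lowest level well above background on the other array, -5.49.

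The other genes of that chromosome 11 cluster gave little signal. Ccl8, a further monocyte attractant, was well above background on the wildtype array only, and was at least 8.41-fold lower in Pcgf6KO and at least 4.69-fold lower on the Flag-labelled array. Ccl11, Ccl12 and Ccl1 were not well above background on any of the 3 arrays. On the other side of Ccl2, 1700071K01Rik differed by 0.18 and Asic2, an ion channel subunit, by 0.69 in Pcgf6KO against wildtype, both under 2-fold.

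Csf1, the growth and survival factor of macrophages, was lower on both other arrays than in wildtype. Its brightest probe (NM_007778), spotted 10 times, gave a mean of 614 units on the Flag-labelled array, 2918 on the Pcgf6KO array and 14444 on the wildtype array. The spots, again repeats within 1 array per group, spanned 558 to 673, 2623 to 3071 and 13474 to 15347 units. They did not overlap between arrays, and the share of all repeatedly spotted probes without overlap is not given. Csf1 was 5.42-fold lower in Pcgf6KO than in wildtype, and 5.12-fold lower on the Flag-labelled array than in Pcgf6KO. It was 27.7-fold lower on the Flag-labelled array than in wildtype, the 3rd lowest of the 14193 genes measured on both arrays. Among the unranked genes with a bound, Ccl7 (at least 37.6-fold) and the fibroblast marker Mgp (at least 82.8-fold) lay further below wildtype there.

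The other Csf1 probes, both matched to NM_001113530, gave larger differences between Pcgf6KO and wildtype. The first had 61.7 units on the Flag-labelled array, 141 on the Pcgf6KO array and 1977 on the wildtype array, and was 15.3-fold lower in Pcgf6KO. The second had 69.1, 201 and 1953 units on the same arrays and was 10.6-fold lower. Neither was well above background on the Flag-labelled array, where the bounds against wildtype were at least 22.6-fold and at least 22.3-fold lower. All 3 probes thus gave the same order of arrays, and the probes disagreed on the size of the difference.

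Il6, the interleukin that signals through Il6ra and Il6st, was dim throughout. Its probe (NM_031168), spotted 2 times, gave 23.9 units on the Flag-labelled array and 17.7 units on the Pcgf6KO array, neither well above background, and 133 units on the wildtype array. Il6 was at least 2.73-fold lower in Pcgf6KO than in wildtype. On the Flag-labelled array, with its higher background limit, the bound against wildtype was at least 1.52-fold lower and was not called.

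**Figure D2:**
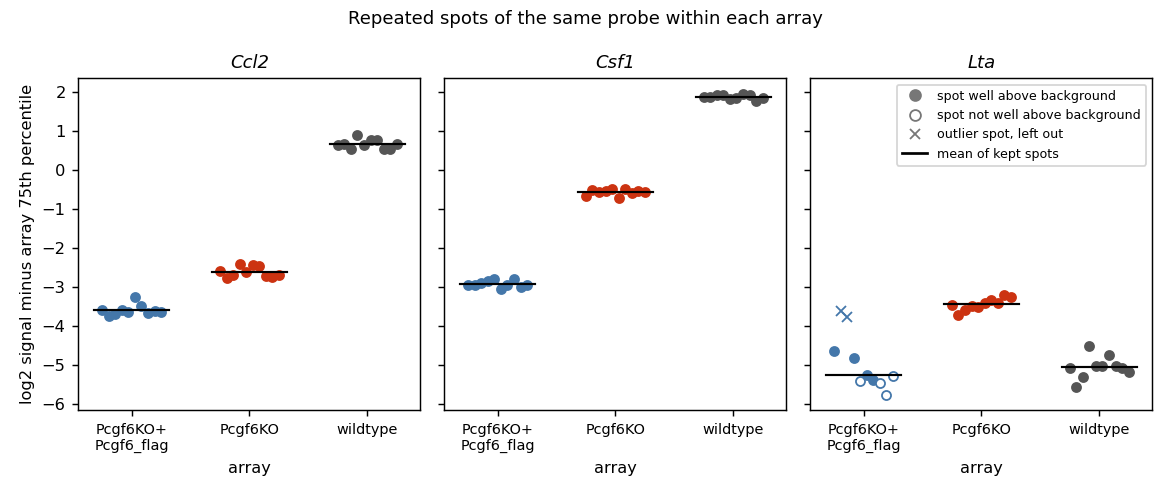
Repeated spots of the probes for Ccl2, Csf1 and Lta (vertical axis, log2 signal minus the 75th percentile of the array), with the Flag-labelled array (Pcgf6KO+ Pcgf6_flag) in blue, the Pcgf6KO array in red and the wildtype array in grey. Bars are means of the kept spots, open points are spots not well above background, and crosses are spots left out as outliers. Spots of Ccl2 and Csf1 did not overlap between arrays, whereas those of Lta on the Flag-labelled array overlapped those of wildtype. Repeated spots are not replicates of a group, and the share of all repeatedly spotted probes without overlap is not given.

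Many markers of fibroblasts, the cell type of the feeder layer, were also lower than in wildtype on both other arrays. Cxcl12, another known fibroblast product, was not called lower on its brightest probe. That probe differed from wildtype by 0.55 in Pcgf6KO and by -0.12 on the Flag-labelled array. A dimmer second Cxcl12 probe differed from wildtype by 0.01 in Pcgf6KO. On the Flag-labelled array it was at least 1.99-fold lower than wildtype, just short of a call. Of 29 fibroblast markers on the array, 19 were well above background on the Flag-labelled array, 25 on the Pcgf6KO array and 28 on the wildtype array. Their summed scaled signals were 53.7, 67.9 and 119 times the 75th percentile of the same arrays. In Pcgf6KO against wildtype, 0 markers were higher and 15 of 28 lower, 3 as bounds, with a median of -0.93 over those measured on both arrays. On the Flag-labelled array against wildtype, 0 were higher and 21 of 28 lower, 8 as bounds, with a median of -2.44. The list did not move as a whole: Acta2, a smooth muscle actin, had levels of -0.87, 1.01 and 3.64 on the Flag-labelled array, the Pcgf6KO array and the wildtype array, whereas Sparc, a matrix glycoprotein, had 3.73, 3.65 and 3.87. Their part in the lower levels of Ccl2, Ccl7, Csf1 and Il6 was not tested, and in these bulk samples fewer cells of a type and less RNA per cell cannot be told apart.

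**Figure D3:**
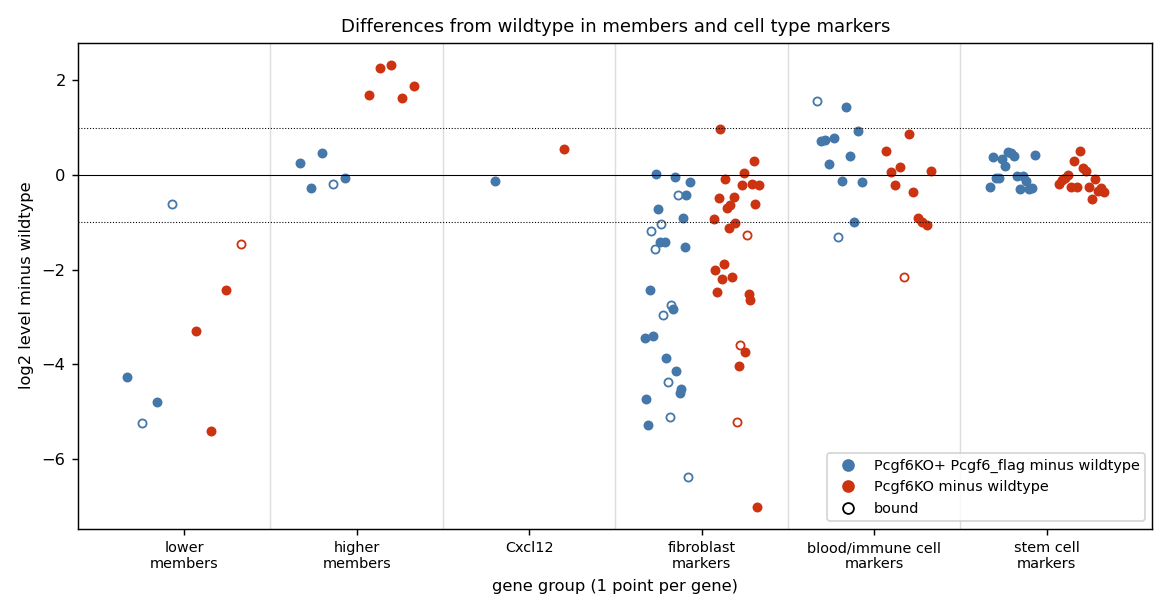
Difference from wildtype (vertical axis, log2 level minus wildtype) for the Flag-labelled array (Pcgf6KO+ Pcgf6_flag, blue) and Pcgf6KO (red), 1 point per gene, for the members lower in Pcgf6KO, the members higher in Pcgf6KO, Cxcl12 and the 3 lists of cell type markers. Open points are bounds and dotted lines mark 2-fold. The fibroblast markers lie mostly below 0 on both arrays, and the stem cell markers lie within 2-fold.

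Cxcl10 and Cxcl1 showed the other pattern. Cxcl10, an interferon-inducible chemokine that attracts T cells through Cxcr3, gave 1457 units on the Flag-labelled array, 7776 on the Pcgf6KO array and 1488 on the wildtype array (NM_021274), with software errors of 148, 778 and 149 units. The Pcgf6KO array was high, and the other arrays lay close to each other. Cxcl10 was 4.77-fold higher in Pcgf6KO than in wildtype, the 105th highest of 14997 genes. It was 5.75-fold lower on the Flag-labelled array than in Pcgf6KO, and its level there differed from wildtype by -0.27.

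Cxcl1, a neutrophil attractant that binds Cxcr2, had 339 units on the Flag-labelled array, 851 on the Pcgf6KO array and 241 on the wildtype array (NM_008176). It was 3.22-fold higher in Pcgf6KO than in wildtype and 2.70-fold lower on the Flag-labelled array than in Pcgf6KO. The difference between the Flag-labelled array and wildtype was 0.25, under 2-fold.

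Cxcl12, which guides stem and progenitor cells through Cxcr4, was not called on its brightest probe. That probe (NM_001012477) gave 2701 units on the Flag-labelled array, 4016 on the Pcgf6KO array and 2497 on the wildtype array. The difference was 0.55 between Pcgf6KO and wildtype and -0.68 between the Flag-labelled array and Pcgf6KO. A second probe (NM_021704) had 40.6 units, not well above background, on the Flag-labelled array, 192 units on the Pcgf6KO array and 174 units on the wildtype array. It differed by 0.01 between Pcgf6KO and wildtype, so the probes disagreed on the size. Against Pcgf6KO it gave a bound of at least 2.004-fold lower on the Flag-labelled array. The mean over both probes would call Cxcl12 lower on that array in both comparisons, but it takes the undetected signal of the second probe as a value, so no size is given for it.

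Il18 and the lymphotoxins, like Cxcl10 and Cxcl1, had their highest level in Pcgf6KO. Il18, an interleukin that is made as a precursor and cut by inflammatory caspases, had 216 units on the Flag-labelled array, 727 on the Pcgf6KO array and 132 on the wildtype array (NM_008360). It was 5.02-fold higher in Pcgf6KO than in wildtype (2.33), the 92nd highest of 14997 genes and the highest of the members by this difference. With normexp background correction the difference was 1.52, below those of Cxcl10 (2.15) and Ltb (1.89), so this order depends on the correction. It was 3.63-fold lower on the Flag-labelled array than in Pcgf6KO, and 0.47 above wildtype there, under 2-fold.

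Ltb encodes lymphotoxin beta, the membrane-bound partner of the secreted protein encoded by Lta. It gave 2967 units on the Flag-labelled array, 10591 on the Pcgf6KO array and 2615 on the wildtype array (NM_008518). It was 3.70-fold higher in Pcgf6KO than in wildtype and 3.84-fold lower on the Flag-labelled array than in Pcgf6KO. The remaining difference between the Flag-labelled array and wildtype, -0.06, was smaller than the 0.09 SD of a difference between single spots.

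Lta had a mean of 121 units on the Flag-labelled array, 398 on the Pcgf6KO array and 118 on the wildtype array (NM_010735). On the Flag-labelled array only 4 of 8 kept spots were well above background, and a further 2 spots, at 375 and 341 units, were left out as outliers by the scanner software. The kept spots there spanned 84.4 to 184 units and overlapped the wildtype spots at 83.3 to 171 units, while the Pcgf6KO spots at 329 to 466 units lay above both. Lta was 3.08-fold higher in Pcgf6KO than in wildtype. By its bound it was 3.53-fold lower on the Flag-labelled array than in Pcgf6KO. That bound uses the gene's own signal, so it is no firm lower limit. The difference of -1.82 became -1.51 with the outlier spots kept and -1.10 with another background correction (normexp).

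Ltb and Lta lie on chromosome 17 with only Tnf, the tumour necrosis factor gene, between them, and Tnf was not well above background on any of the 3 arrays. Of 6 measured genes in a list of their neighbours, Aif1, a macrophage-associated calcium-binding protein, was 2.61-fold higher in Pcgf6KO than in wildtype, and the others were not called. Normexp, another way to correct the spot background, ended the Aif1 call, with a difference of 0.73. Lst1 next to Ltb differed by 0.02 and Nfkbil1 next to Lta by -0.21. The genes directly flanking the pair were thus under 2-fold, whereas Ltb and Lta were above it.

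In the Flag-labelled array against Pcgf6KO, 0 members were higher and 6 lower, 1 of them as a bound. Over all 15757 genes tested, 6.15% were higher and 10.02% were lower. The lower members were Cxcl1, Cxcl10, Csf1, Il18, Lta and Ltb, and the median of the 7 measured on both arrays was -1.86, beside 0.03 over all 14241 genes measured on both. Ccl2 missed the threshold at 1.97-fold lower, and it was called lower under 3 other scalings of the arrays, by up to -1.07. In the same comparison 12 of 25 fibroblast markers were lower and 0 higher, with a median of -1.21, and 4 of 11 blood and immune cell markers were higher and 0 lower. Their part in the differences of the members was not tested.

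In the Flag-labelled array against wildtype, 0 members were higher and 3 lower, Ccl2, Ccl7 and Csf1, 1 of them as a bound. Over all 15587 genes tested, 5.83% were higher and 6.28% were lower. The 3 comparisons share arrays, so they are not independent of each other. Set side by side, the 5 members higher in Pcgf6KO differed from wildtype by -0.27 to 0.47 on the Flag-labelled array, Lta as a bound of -0.20, and by 1.62 to 2.33 in Pcgf6KO. Csf1 and Ccl2 had their lowest level on the Flag-labelled array, and it was further below wildtype (-4.79 and -4.27) than that of Pcgf6KO (-2.44 and -3.29).

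**Figure D4:**
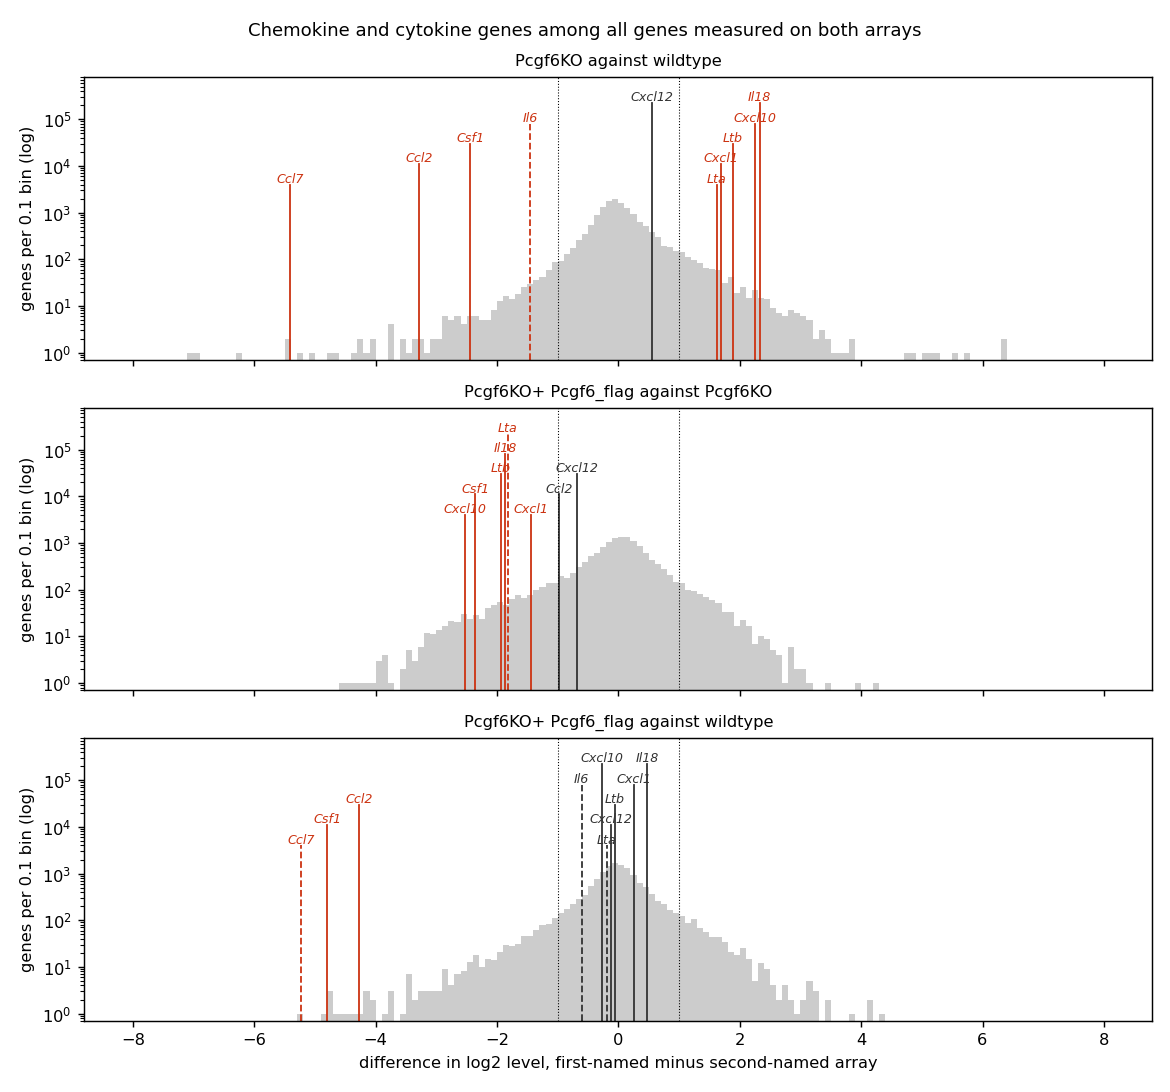
Differences in log2 level (horizontal axis, first-named minus second-named array) of all genes measured on both arrays, as counts per bin on a log axis, with the members as vertical lines, for the 3 comparisons. Red lines passed 2-fold (dotted verticals), and dashed lines are bounds. In Pcgf6KO against wildtype the members lie on both sides of the bulk of genes, and in the Flag-labelled array (Pcgf6KO+ Pcgf6_flag) against Pcgf6KO the 8 members drawn lie below 0.

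Markers of other cell types were set beside the members that were higher in Pcgf6KO. None of the fibroblast markers was at least 2-fold higher in Pcgf6KO than in wildtype. Of 19 blood and immune cell markers on the array, each array had 11 well above background, and 10 of them were so on all 3. The list's summed scaled signals were 33.2 times the 75th percentile on the Flag-labelled array, 23.8 on the Pcgf6KO array and 27.6 on the wildtype array. In Pcgf6KO against wildtype 0 were higher and 2 of 12 lower, and Cd79a, Ms4a1, Cd8a, Adgre1, Spi1, Ncf1 and Tyrobp, markers of B cells, T cells and myeloid cells, were not well above background on any of the 3 arrays.

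The receptors and binding partners of the members were mostly not called, and several were dim. Most genes of the array were not called either, with 6.61% higher and 3.56% lower in Pcgf6KO against wildtype. Of 17 such genes, 10 were measured in Pcgf6KO against wildtype, with 2 higher and 0 lower and a median of 0.32 (1 higher with normexp background correction). Il6ra, the ligand-binding chain for Il6, had levels of -1.43 on the Flag-labelled array, -0.31 on the Pcgf6KO array and -1.65 on the wildtype array, a difference of 1.35 between Pcgf6KO and wildtype. Il6st, the signalling chain, had 1.03, 1.02 and 0.82 on the same arrays and was not called. Ccr2, the Ccl2 receptor, was well above background in Pcgf6KO only, at least 2.08-fold above wildtype, a call that normexp ended (bound of 0.70). Csf1r, the Csf1 receptor, differed by 0.16 between Pcgf6KO and wildtype.

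Of these receptors and partners, 0 of 10 were higher and 2 were lower in the Flag-labelled array against Pcgf6KO. Ltbr, the receptor for membrane lymphotoxin, was lower by -1.67, and Il6ra by -1.12. Against wildtype Cxcr4, the Cxcl12 receptor, was higher by 1.44 and Ltbr lower by -1.04, a call that normexp (-0.95) and leaving out the scaling ended. Il18r1 and Il18rap, the chains of the Il18 receptor, and Cxcr2 and Cxcr3 were not well above background on any of the 3 arrays.

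Cxcl16 and Cxcl5, of the other chemokine ligands, were also highest in Pcgf6KO. Of 8 other CXC, CX3C and XC ligands measured in Pcgf6KO against wildtype, 2 were higher and 1 lower, with a median of 0.35. Cxcl16, a transmembrane chemokine, had levels of -0.92 on the Flag-labelled array, 0.54 on the Pcgf6KO array and -1.44 on the wildtype array, a difference of 1.98 between Pcgf6KO and wildtype. Cxcl5, a neutrophil attractant, had -2.95, -0.89 and -2.03, a difference of 1.14. Both were also lower on the Flag-labelled array than in Pcgf6KO, by -2.06 for Cxcl5 and -1.46 for Cxcl16. Ppbp, the precursor of a platelet chemokine, was lower in Pcgf6KO than in wildtype by -3.37. Of 9 other CC ligands, 0 were higher and 2 were lower in Pcgf6KO, both as bounds: Ccl8, given above, and Ccl9, a further CC chemokine, by at least 2.48-fold.

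Of 21 other interleukins and colony-stimulating factors measured, 6 were higher and 3 lower in Pcgf6KO than in wildtype, with a median of -0.01. Il7, a lymphocyte growth factor, was higher by 1.32 and Il15, which sustains natural killer cells, by 1.18. With normexp background correction only 1 of the list was higher and 1 lower, and Il7 (0.68) and Il15 (0.70) were no longer called. Il10, an anti-inflammatory interleukin, had levels of -5.57, not well above background, on the Flag-labelled array, -3.45 on the Pcgf6KO array and -1.06 on the wildtype array, and was lower in Pcgf6KO by -2.39. In the Flag-labelled array against Pcgf6KO, 1 of 21 was higher and 5 were lower, 3 with normexp. Il33, an alarmin of barrier tissues, was lower there by -2.56.

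Of 9 chemokine receptors measured in Pcgf6KO against wildtype, 1 was higher and 1 lower, with a median of 0.45, and 0 were higher with normexp. The higher one was Ccr2, given above, and the lower one Cxcr6, the receptor of Cxcl16, by at least 3.91-fold. In the Flag-labelled array against Pcgf6KO, 2 of 9 were higher and 1 lower, again without a shared direction. Ccr6, the receptor of Ccl20, was higher by 3.02, Ackr1, a chemokine scavenger, by at least 4.68-fold, and Ackr4, another scavenger, was lower by -2.21.

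**Figure D5:**
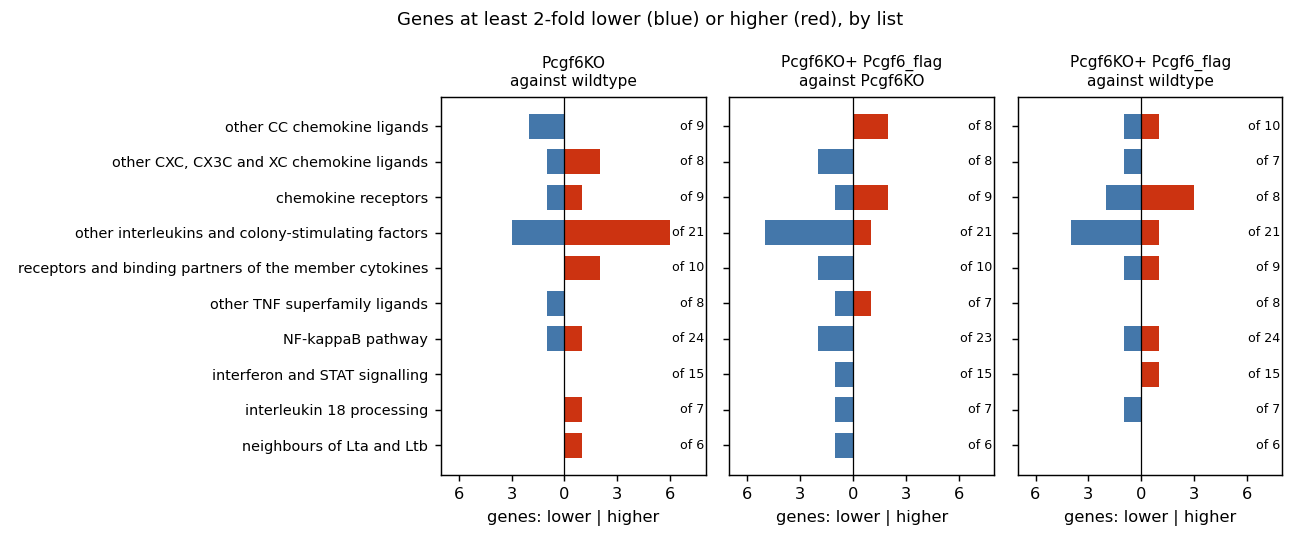
Genes at least 2-fold lower (blue bars, to the left) or higher (red bars, to the right) in each of 10 lists of related genes, for the 3 comparisons. The number measured on at least 1 of the 2 arrays stands at the right of each row. In Pcgf6KO against wildtype most genes of each list were not called, and the list of other interleukins and colony-stimulating factors holds the longest bars. Over all genes tested in that comparison, 6.61% were higher and 3.56% were lower.

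Most genes of the signalling pathways known to act on these cytokines were not called, and nor were most genes of the array. In Pcgf6KO against wildtype, 6.61% of all 15879 genes tested were higher and 3.56% were lower. Of 24 NF-kappaB pathway genes, 1 was higher and 1 lower in Pcgf6KO than in wildtype, with a median of 0.12. Tnfaip3, a deubiquitinase that restrains NF-kappaB and is itself one of its targets, had levels of -2.94 on the Flag-labelled array, -1.01 on the Pcgf6KO array and -2.08 on the wildtype array. It was higher in Pcgf6KO than in wildtype by 1.07 and lower on the Flag-labelled array than in Pcgf6KO by -1.93. With normexp the first of these was 0.90, under 2-fold, and 0 genes of the list were higher. The lower gene was Vcam1, an adhesion molecule, at least 9.66-fold lower in Pcgf6KO. Of 15 interferon and STAT signalling genes, 0 were called in Pcgf6KO against wildtype, with a median of -0.02. With normexp and under 3 other settings 1 was higher. Irf1 lay just under the call in the main setting, at 0.98. On the Flag-labelled array against wildtype 1 of the 15 was higher, Irf1 by 1.14, and 0 were lower. Averaging over probes ended that Irf1 call. In the Flag-labelled array against Pcgf6KO, 0 of 23 NF-kappaB genes were higher and 2 lower, and 0 of 15 interferon and STAT genes were higher and 1 lower (1 and 0 lower with normexp).

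Among 7 measured genes of the inflammasome and Il18 processing, Casp8, an apoptotic and inflammatory caspase, was higher by 1.55 in Pcgf6KO than in wildtype. It was lower by -2.17 on the Flag-labelled array than in Pcgf6KO. The others were not called in these comparisons. Of 8 other TNF superfamily ligands, 1 was lower in Pcgf6KO than in wildtype, Tnfsf12 by -1.44.

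The genes whose pattern was most like that of Ccl2 and of Cxcl10 were sought among 7076 genes measured on all 3 arrays with a level at or above their median. Likeness was the distance between genes in their 2 differences from wildtype, so it rests on 3 arrays. Acta2 lay closest to Ccl2, at a distance of 0.70, and Ccnd2, Col1a1 and Prss23 lay at 2.45, 2.50 and 2.66. Mael, a piRNA pathway gene of the germline, lay closest to Cxcl10, at a distance of 0.11, followed by Rnf130, Hmgn3, Rhox6 and Krt19 at 0.47 to 0.60. Mael had levels of 0.57 on the Flag-labelled array, 3.12 on the Pcgf6KO array and 0.93 on the wildtype array.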

How the data were processed

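Cy3-labelled material was hybridised to 1-colour Agilent mouse arrays, 1 array for each of 3 groups. The deposited scanner output holds the spot intensity on a linear scale, background-subtracted by Agilent Feature Extraction 11.5.1.1 per the file headers, whereas the submitters' processing notes name version 10.7. The value table of the series held the same intensity, unscaled, uncentred and with no ratio, for 55249 of 55249 probes with a single spot on each array (relative tolerance 1e-06), with column medians of 313, 273 and 243 for the arrays labelled Pcgf6KO+ Pcgf6_flag, Pcgf6KO and wildtype.

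Left out were control spots and, on these arrays, 192, 158 and 141 spots that the software called outliers. No spot was saturated (0 on each array), and repeated spots were averaged. Each level is the log2 intensity after subtracting the 75th percentile of its array. A probe counted as measured if more kept spots than not passed the software's background test. Accessions without versions were matched to a RefSeq gene table (GRCm38.p6). This named 26762 probes, left 28919 of 55681 unnamed and gave 20274 genes, 16048 of them measured on at least 1 array. A gene was read from its brightest measured probe. Gene order, but no coordinate of a probe, was taken from the same table.

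A single array per group allows no test, so differences were called at 2-fold, measured or as a bound. The members, the lists and the naming rule were chosen with earlier results of these data known. The rule named all members and Pcgf6. Of each pathway list and comparison it allowed up to 3 genes per direction measured on both arrays and up to 2 bounds, with up to 4 markers per cell type, brightest in wildtype, and the 5 genes nearest to Ccl2 and to Cxcl10. One result that the rule selects is not reported here. Neighbouring genes, members of lists set beside their ligand or receptor, and the blood markers named as dim fall outside it and were chosen after their values were seen.

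Promoter motifs were searched on both strands in RefSeq windows of 300 bases. Alternatives are given in the closing section. No fit with the slide as a block was made, since slide 2 holds 1 array and each group has 1 array. For normexp the median spot signal was used, the files having no mean. Software versions were Python 3.11.15, numpy 2.4.6, pandas 2.3.3, matplotlib 3.10.9, R 4.3.3 and limma 3.58.1.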

Additional observations from a re-analysis of the deposited data

How the results depend on the processing

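Of 30 member calls (10 genes, 3 comparisons), 25 were the same under all 9 alternatives that kept the 2-fold threshold, and these include all 10 of Pcgf6KO against wildtype. The exceptions were Ccl2 and Cxcl12, given above, Ccl7 against Pcgf6KO (-1.85) and Il6 against wildtype (-2.71) on the Flag-labelled array, both called lower with no filter on dim probes, which sets no bounds. No called member difference changed sign, and 75 differences moved by more than the spread of spots. Between the Flag-labelled array and wildtype, Cxcl12, Lta and Ltb, none of them called, reached 0.11, 0.12 and 0.18 above 0. At 3-fold, the Il6 call in Pcgf6KO and the Cxcl1 call against Pcgf6KO were lost.

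Counts over all genes moved more. In Pcgf6KO against wildtype, 660 were higher with normexp, 1589 with no dim filter, 2059 at 1.5-fold and 406 at 3-fold, against 1050, and 876 were lower with no dim filter, 1350 at 1.5-fold and 230 at 3-fold, against 565. In the Flag-labelled array against Pcgf6KO, 1959 were higher with no dim filter, 2014 at 1.5-fold and 313 at 3-fold, against 969, and 2690 were lower at 1.5-fold and 781 at 3-fold, against 1579. Against wildtype, 552 were higher with normexp, 1760 with no dim filter, 1809 at 1.5-fold and 307 at 3-fold, against 908, and 1509 were lower with no dim filter, 1977 at 1.5-fold and 424 at 3-fold, against 979. The cause was not tested, beyond the lower or higher threshold itself. Of 858 list counts under alternatives, 693 stayed within 1.5 times. The other interleukins higher in Pcgf6KO, 6 in all, were 4 with quantile or median scaling, 1 with normexp and 0 at 3-fold, and 0 NF-kappaB genes were higher with normexp or at 3-fold.

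Without scaling, the median of all genes was 0.11 in Pcgf6KO against wildtype, and on the Flag-labelled array 0.13 against Pcgf6KO and 0.22 against wildtype. In that last comparison 66.0% of called genes were then higher, against 48.1%. Scaling to the median gave -0.14 there, and no dim filter gave 0.11 against Pcgf6KO. No paired analysis was possible because each group has 1 array. Genes near the background limit, Il6, Ccl7 and Lta among the members, carry bounds only where an array could not measure them.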
